A study of Mus musculus with 2 samples.

Results

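The 9 genes described here encode a ligand, a ligand anchor, both receptors, the signal-carrying Smad proteins and 2 inhibitors of the transforming growth factor beta (TGF-beta) pathway. They are Tgfb1, Nrros, Tgfbr1, Tgfbr2, Smad2, Smad3, Smad4, Smad7 and Ski, chosen by name from the 31053 genes listed, and all 9 were found. They were measured by single-cell RNA sequencing in microglia, the resident macrophages of the brain, sorted from the hypothalamus of young wild-type mice. Several mice were pooled, all had received dye-labelled plasma protein 20 hours earlier, and cells that carried the dye (plasma-positive) were separated by flow cytometry from cells that did not (plasma-negative). Each sort gave 1 library, so no difference between the libraries has a replicate check, no test was run, and differences between mice, sorts and library preparations cannot be told apart from the dye. The pool cannot be traced back to single mice.

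TGF-beta is secreted in a latent form that stays bound to an anchor protein until it is released. The active ligand joins a type II receptor to a type I receptor, which phosphorylates Smad2 and Smad3, and these enter the nucleus with Smad4 to regulate genes. In the brain, microglia need this signal to keep their adult gene programme, and NRROS, also called LRRC33, is the anchor that microglia use for latent TGF-beta 1.

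The libraries held 9878 plasma-negative and 10390 plasma-positive cells, of which 9860 and 10362 passed the limits of at least 500 unique molecular identifiers (UMIs, each marking 1 captured RNA molecule), at least 300 genes and at most 10% mitochondrial UMIs. The kept cells carried 34534518 and 41984977 UMIs, with medians of 3270.5 and 3753 per cell. The plasma-positive library was therefore deeper per cell, and it also had the higher median mitochondrial share, 1.27% against 1.08%, and the higher share of UMIs on ribosomal protein genes, 10.1% against 9.09%. All 11 microglia markers were present, each in at least 64.4% of cells without and 68.0% of cells with the dye, and 99.9% of cells in either library held 4 or more of them. The 65 markers of 13 other cell types summed to 114 and 119 counts per 1e+06 UMIs of the library (CPM), 29 and 26 of them were at 0, and the most frequent were Cd79b, in 14.3% and 16.4% of cells, Mbp, in 7.01% and 8.25%, and Pecam1, in 6.71% and 6.94%.

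Smad2, Smad4 and Smad7 were left out of the promoter matching, so it does not show whether they have a window. For the other 6 of the 9 members, RefSeq promoter windows (GRCm38.p6) were matched. Those at the annotated gene starts of the receptors are shown because, in the plasma-positive library, the 2 receptor transcripts varied differently between cells. Tgfbr1 has a second RefSeq window, inside the gene, which is described but not printed. Each is the 250 bases before the annotated start, 5′ to 3′ on the gene's strand. Capitals mark CAGAC, the core of the Smad-binding element, and GGGCGG, the GC box bound by Sp1-type factors, each searched on both strands (GTCTG and CCGCCC on the other).
Tgfbr1, chr4:47352972-47353221, plus strand: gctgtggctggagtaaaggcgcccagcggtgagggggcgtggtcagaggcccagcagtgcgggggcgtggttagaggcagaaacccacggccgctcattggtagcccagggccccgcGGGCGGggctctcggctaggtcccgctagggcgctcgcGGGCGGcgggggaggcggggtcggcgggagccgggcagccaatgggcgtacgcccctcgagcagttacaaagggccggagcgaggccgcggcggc
Tgfbr2, chr9:116175364-116175613, minus strand: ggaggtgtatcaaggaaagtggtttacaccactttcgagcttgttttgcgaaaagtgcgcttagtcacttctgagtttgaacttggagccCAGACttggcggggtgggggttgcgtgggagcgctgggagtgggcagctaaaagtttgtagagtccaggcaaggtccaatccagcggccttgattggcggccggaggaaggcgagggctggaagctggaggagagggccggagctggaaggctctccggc
The printed Tgfbr1 window held 2 matches to GGGCGG and 0 to CAGAC, and the Tgfbr2 window held 0 and 1. The second Tgfbr1 window, chr4:47385966-47386215, also held 0 and 1. GGGCGG or its reverse was found in 32.7% and CAGAC or its reverse in 42.2% of all 32851 windows of this length. G or C made up 74.8% of the printed Tgfbr1 window, 52.8% of the second and 58.4% of the Tgfbr2 window, against a median of 52.4% over all windows. A match describes letters only, and the data do not measure binding at these sites.

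The ligand gene Tgfb1 (ENSMUSG00000002603, chromosome 7, 25687002 to 25705077, plus strand) was among the more abundant members. It reached 323 CPM in plasma-negative microglia (317 to 329, the exact 95% Poisson interval, for counting error alone), and 319 CPM (314 to 325) in plasma-positive microglia. The intervals overlapped. Plasma-positive over plasma-negative, the ratio came to 0.988 (0.964 to 1.013, exact conditional binomial interval), and all later ratios between libraries run in that direction. The other TGF-beta ligand genes were nearly undetected, with 8 and 5 UMIs for Tgfb2 and 1 and 0 for Tgfb3.

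Nrros (ENSMUSG00000052384, chromosome 16, 32142785 to 32165594, minus strand), the anchor, stood at 125 CPM (121 to 128) without and 113 CPM (109 to 116) with the dye. The intervals did not overlap, and the ratio was 0.902 (0.866 to 0.940). Its relative Lrrc32, the anchor known from regulatory T cells and platelets, had 0 UMIs in both libraries, which allows up to 0.0869 and 0.0715 CPM at a limit of 3 counts. For each Nrros UMI there were 2.59 (2.50 to 2.68) Tgfb1 UMIs in the plasma-negative and 2.84 (2.74 to 2.93) in the plasma-positive library, so that the 2 intervals were apart.

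The type I receptor gene Tgfbr1 (ENSMUSG00000007613, chromosome 4, 47353222 to 47414931, plus strand) had the highest level of the 9 by far. Without the dye it was at 1389 CPM (1376 to 1401), with the dye at 1338 CPM (1327 to 1349), a ratio of 0.964 (0.952 to 0.976). The type II receptor gene Tgfbr2 (ENSMUSG00000032440, chromosome 9, 116084293 to 116175360, minus strand) had 348 CPM (342 to 355) without and 346 CPM (341 to 352) with it, giving 0.994 (0.970 to 1.018). Tgfbr1 thus gave 3.99 (3.91 to 4.07) and 3.87 (3.80 to 3.94) UMIs for each Tgfbr2 UMI, with overlapping intervals. UMIs were counted near the 3' end and were not divided by gene length, so a ratio between 2 genes also holds any difference in how well their transcripts were captured, and it is best read between the libraries.

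The Smad genes that carry the signal were the least abundant. Smad2 (ENSMUSG00000024563, chromosome 18, 76241580 to 76310963, plus strand) measured 77.7 CPM (74.8 to 80.7) without the dye, then 69.7 CPM (67.2 to 72.3) with it, giving 0.896 (0.850 to 0.945). Smad3 (ENSMUSG00000032402, chromosome 9, 63646767 to 63757994, minus strand) measured 35.0 CPM (33.0 to 37.0) without, then 32.9 CPM (31.2 to 34.6) with it, giving 0.940 (0.870 to 1.017). Smad4 (ENSMUSG00000024515, chromosome 18, 73639009 to 73703780, minus strand), the partner shared with bone morphogenetic protein (BMP) signalling, measured 86.7 CPM (83.6 to 89.8), then 79.3 CPM (76.6 to 82.0), giving 0.915 (0.871 to 0.962). The intervals of Smad2 and Smad4 were apart between the libraries, and those of Smad3 overlapped. Smad2 exceeded Smad3 by 2.22 (2.08 to 2.38) and 2.12 (1.99 to 2.26) UMIs to 1, with overlapping intervals.

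Both inhibitors were more abundant than these Smads. Smad7 (ENSMUSG00000025880, chromosome 18, 75367529 to 75395935, plus strand), which blocks the type I receptor and is itself induced by TGF-beta, measured 227 CPM (222 to 232) without the dye, then 215 CPM (210 to 219) with it, giving 0.947 (0.918 to 0.976). Ski (ENSMUSG00000029050, chromosome 4, 155154075 to 155222592, minus strand), a co-repressor that binds Smad proteins in the nucleus, measured 235 CPM (230 to 240), then 234 CPM (230 to 239), giving 0.995 (0.966 to 1.025). The ratio of Smad7 UMIs to those of Smad2 and Smad3 together was 2.01 (1.93 to 2.09) and 2.09 (2.02 to 2.17). Ski gave 0.799 (0.776 to 0.823) and 0.857 (0.834 to 0.880) UMIs for each UMI of its relative Skil, and here the intervals were apart.

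All 9 genes are protein-coding in GENCODE M21 (GRCm38), from which the gene coordinates come, and no exon of theirs overlaps an exon of another listed gene. In both libraries the order of levels was Tgfbr1, Tgfbr2, Tgfb1, Ski, Smad7, Nrros, Smad4, Smad2 and Smad3, and in both the intervals of each gene lay apart from those of its neighbours in that order, with the exception of Ski and Smad7 in the plasma-negative library, at 230 and 232 CPM for the nearest bounds.

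**Figure D1:**
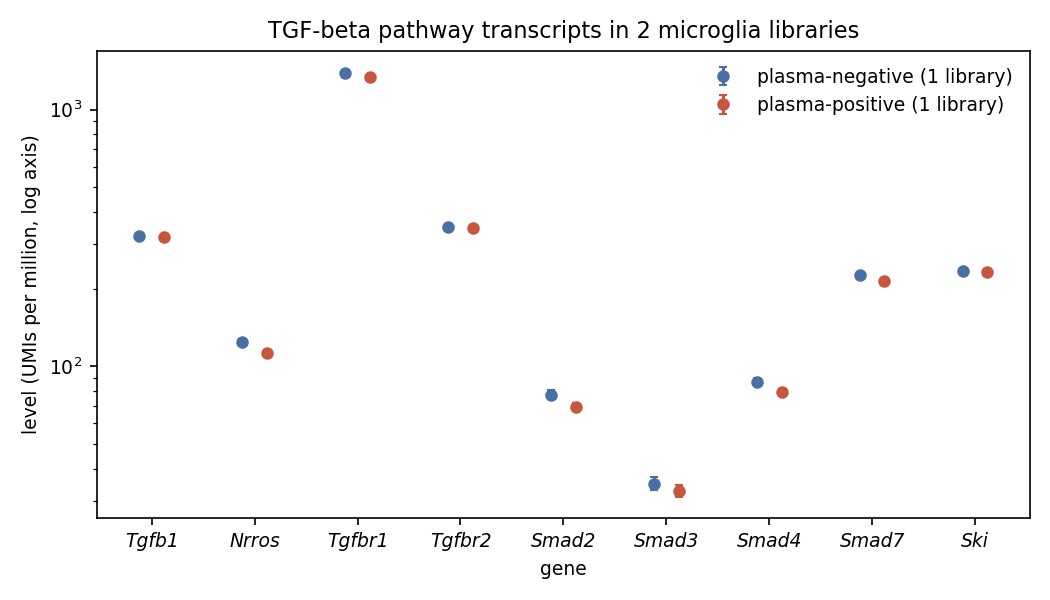
Level of each member in CPM on a log axis for the plasma-negative (blue) and plasma-positive (red) library, with exact 95% Poisson intervals. Tgfbr1 is highest (1389 and 1338 CPM) and Smad3 lowest (35.0 and 32.9 CPM), and the paired points lie close together.

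Set against all genes, these differences were ordinary in size. The log2 ratios, plasma-positive over plasma-negative, ran from -0.16 for Smad2 to -0.01 for Ski, with a median of -0.08, whereas 8355 genes with at least 10 CPM in either library had a median of -0.04 and quartiles of -0.11 and 0.04. All 9 members passed that minimum in both libraries. Smad2 and Nrros, 2 of the 9, were lower by 1.1-fold or more in the plasma-positive library, and so were 16.5% of all genes. None of the 9 was higher by 1.1-fold or more, as were 6.82% of all genes, and none passed 1.5-fold, which 0.323% of all genes did upward and 0.0239% downward. All 9 ratios were below 1, and 5370 of the 8355 genes were too. The sign of the smallest differences depends on the scale, and with the median of the genes at 50 CPM or more set to 0, Tgfb1, Tgfbr2 and Ski turned slightly positive. The count of members lower by 1.1-fold was 0 under that scaling and also with mitochondrial and ribosomal protein genes left out of the total, both of which move with the library. With those genes left out, Smad2 only just missed 1.1-fold, at a log2 ratio of -0.137, and Nrros was at -0.128.

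**Figure D2:**
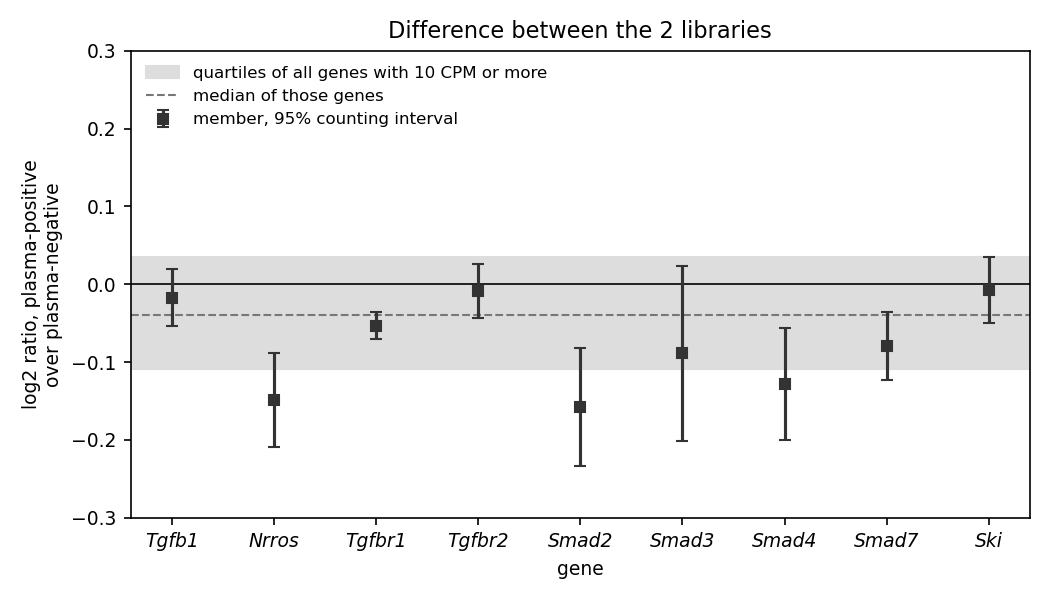
Log2 ratio of plasma-positive to plasma-negative CPM for each member with its exact 95% counting interval; the grey band spans the quartiles (-0.11 to 0.04) and the dashed line marks the median (-0.04) of the 8355 genes with at least 10 CPM. Nrros, Smad2 and Smad4 lie below the band and the other 6 within it.

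Tgfbr1 was also the member found in most cells. Over all UMIs it was seen in 94.4% of cells without and 94.8% of cells with the dye, Tgfbr2 in 61.0% and 66.0%, and Tgfb1 in 60.5% and 65.1%. Smad3, the rarest, was seen in 1075 of 9860 and 1243 of 10362 cells. These shares were higher in the deeper library for all 9 genes. To remove depth, each cell was thinned to 1000 UMIs, which left out 796 plasma-negative and 603 plasma-positive cells below that depth. Tgfbr1 was then found in 72.0% (71.1% to 72.9%, exact binomial interval) of cells without and 70.3% (69.4% to 71.2%) of cells with the dye, and these intervals just overlapped. Tgfb1 was found in 27.4% and 26.5%, Tgfbr2 in 27.6% and 28.0%, Ski in 19.8% and 19.9%, Smad7 in 18.8% and 18.4%, and Nrros in 11.7% and 10.9%. Smad4 was found in 7.76% and 7.77%, Smad2 in 7.44% and 6.84%, and Smad3 in 3.32% and 3.07%. With this thinning the intervals of the 2 libraries overlapped for each of the 9 genes, but that depended on the draw and the depth. With another random draw those of Tgfbr1 lay apart, at 72.4% (71.5% to 73.3%) without and 69.1% (68.1% to 70.0%) with the dye. At 2000 UMIs per cell 3 of the 9 lay apart, all lower with the dye: Tgfbr1 at 90.5% and 88.6%, Smad2 at 14.2% and 12.4%, and Nrros at 22.4% and 20.2%. Both libraries hold microglia alone, so the share that free RNA would give in cells without these transcripts has no direct measure here. The unthinned share of Smad3 lay between those of Mbp and Cd79b, markers of other lineages, so low shares of this size are not read as evidence of expression in a given cell.

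**Figure D3:**
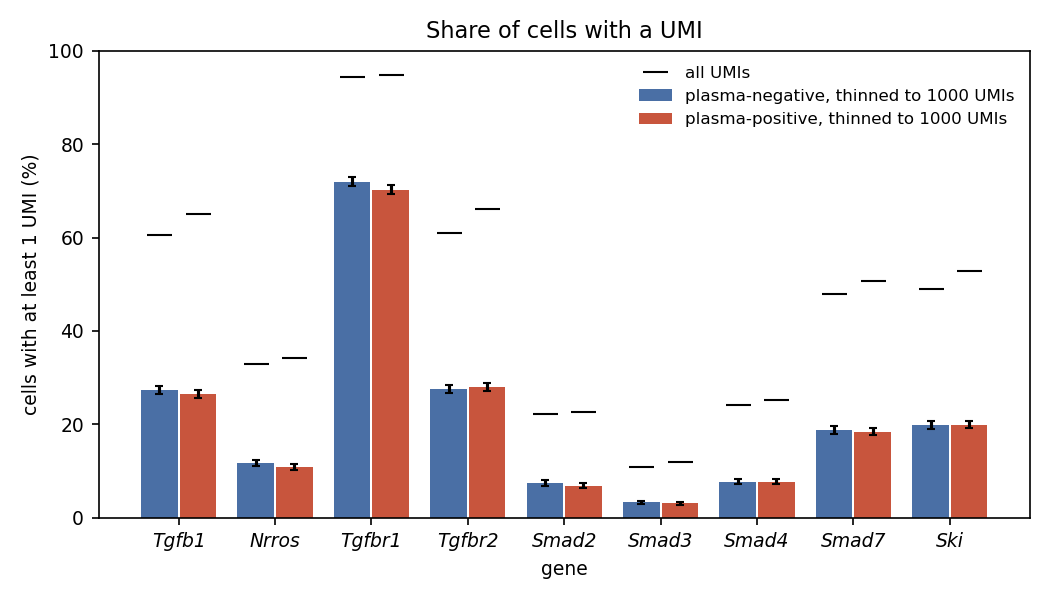
Share of cells with at least 1 UMI of each member after thinning to 1000 UMIs per cell (bars, with exact 95% binomial intervals) and with all UMIs (black dashes). The bars of the 2 libraries differ by less than 2 percentage points for every member, while the dashes are higher in the plasma-positive library.

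Within a thinned cell the median number of members with a UMI was 2 of 9 in both libraries, and no member was seen in 7.37% of cells without and 8.39% of cells with the dye. Tgfbr1 and Tgfbr2 were found together in 19.9% (19.1% to 20.8%) of plasma-negative cells, where the product of their shares was 19.9%, and in 20.1% (19.3% to 20.9%) of plasma-positive cells, where the product was 19.7%. The receptors thus met in single cells about as often as their separate shares give. Tgfb1 and both receptors were seen together in 5.75% and 5.35% of thinned cells, and in 39.5% and 45.1% of cells with all UMIs. Of 36 pairs of members in 2 libraries, 52 values rested on at least 100 cells with both genes. Their ratio to the product of shares lay between 0.926 and 1.17, and in 51 of the 52 the product lay inside the counting interval. For 8 members the variance of thinned counts over cells was between 0.982 and 1.08 times the mean, close to the value of 1 that counting alone gives. For Tgfbr1 it was 1.17 and 1.18 times the mean. Tgfbr1 had a mean of 1.38 and 1.33 UMIs per thinned cell, and the other 8 members had at most 0.341. For the same relative spread between cells, this value comes nearer to 1 as the mean falls. It therefore cannot tell whether Tgfbr1 varied more between cells than the other members.

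Tgfbr1 varied between cells with Apoe, the gene of the lipid carrier apolipoprotein E. Cells were grouped by their thinned Apoe count, a grouping into these steps that was chosen after the Tgfbr1 values had been seen. In the plasma-positive library Tgfbr1 was at 1377 CPM of the thinned UMIs (1352 to 1403) in 7954 cells with 0 Apoe UMIs, and at 1305 (1233 to 1380) in 940 cells with 1. It was at 1260 (1119 to 1413) in 231 cells with 2, at 1041 (917 to 1179) in 241 cells with 3 to 5, at 806 (671 to 961) in 155 cells with 6 to 10, and at 660 (561 to 771) in 238 cells with 11 or more. The last level was 0.479 (0.407 to 0.561) times the first. Tgfbr2 differed less: it was at 346 in cells with 0 Apoe UMIs and at 294 (229 to 372) in cells with 11 or more, a ratio of 0.849 (0.660 to 1.077). The last Tgfbr2 level rested on 70 thinned UMIs. Between the same groups the ratio was 0.473 (0.308 to 0.695) for Ski, 0.676 (0.502 to 0.892) for Tgfb1, 0.568 (0.323 to 0.928) for Nrros and 0.716 (0.500 to 0.996) for Smad7. For Smad2, Smad3 and Smad4 it was 0.719, 0.533 and 0.920, with intervals that included 1. These rested on 12, 4 and 18 thinned UMIs in the last group. With all UMIs of the same cells counted, all 9 members were lower in the last group than in the first. Tgfbr1 was at 1376 and then 742 CPM, Tgfbr2 at 348 and 281, Ski at 240 and 165, and Tgfb1 at 327 and 222. Nrros was at 117 and 84.2 CPM, Smad7 at 216 and 156, Smad2 at 70.4 and 47.6, Smad3 at 33.3 and 18.7, and Smad4 at 79.7 and 58.7. The share of all genes lower in the last group was not computed. In plasma-positive cells with 3 or more Apoe UMIs, against the other cells, most of 3540 genes at 50 CPM or more were lower. Their ratios over all UMIs had a median of 0.877 and quartiles of 0.800 and 0.979. Over all UMIs, Tgfbr1 gave 3.95 (3.87 to 4.04) UMIs for each Tgfbr2 UMI in cells with 0 Apoe UMIs, 2.53 (2.20 to 2.91) in those with 6 to 10 and 2.63 (2.319 to 2.999) in those with 11 or more.

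**Figure D4:**
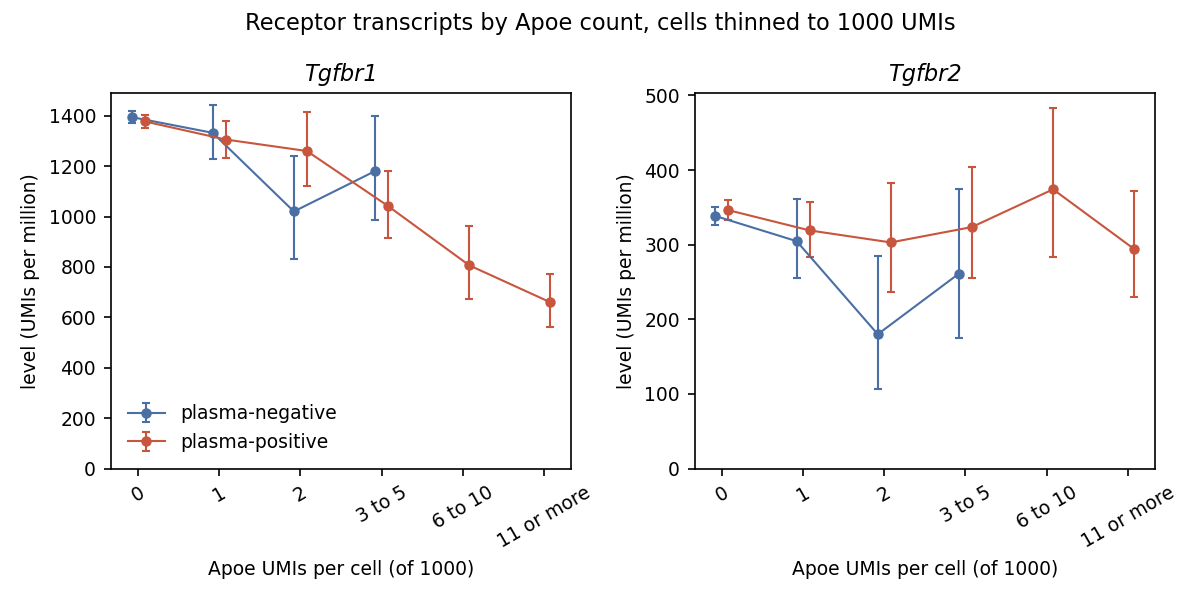
Tgfbr1 (left) and Tgfbr2 (right) levels in CPM of thinned UMIs by the Apoe count of the cell, with every cell thinned to 1000 UMIs and exact 95% Poisson intervals; groups under 50 cells are not drawn. In the plasma-positive library (red) Tgfbr1 goes from 1377 to 660 across the groups, while the Tgfbr2 intervals of the first and last group overlap. The last Tgfbr2 point rests on 70 thinned UMIs. With all UMIs of the same cells, Tgfbr2 was also lower in the last group, at 281 CPM against 348 CPM in the first.

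The plasma-negative library had few such cells, 31 with 6 to 10 Apoe UMIs and 16 with 11 or more, too few to be given. Its Tgfbr1 level was 1394 (1369 to 1420) with 0 Apoe UMIs, 1332 (1227 to 1444) with 1, 1020 (832 to 1238) with 2 and 1180 (987 to 1400) with 3 to 5. Tgfbr2 there was at 338, 305, 180 (107 to 284) and 261 (175 to 375) in the same groups. The group with 2 Apoe UMIs held 18 thinned Tgfbr2 UMIs. With all UMIs of the same cells counted, Tgfbr2 was at 351, 323, 335 and 321 CPM. Tgfbr1 was then at 1385, 1316, 1165 and 1233 CPM. Over all UMIs the plasma-negative library gave 3.94 (3.86 to 4.02), 4.07 (3.71 to 4.47), 3.47 (2.90 to 4.18) and 3.84 (3.16 to 4.69) Tgfbr1 UMIs for each Tgfbr2 UMI, and the intervals of the first and last group overlapped. The groups also differed in other transcripts: in the plasma-positive library the ribosomal protein share was 9.74% with 0 Apoe UMIs and 15.8% with 11 or more, the level of the nuclear RNA Malat1 was 54102 and 42101 CPM, and the median mitochondrial share was 1.21% and 1.69%. Their part in the Tgfbr1 levels was not tested.

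Cells with at least 3 thinned UMIs of Apoe, of a list of interferon-induced genes or of a chemokine list were compared with the other cells of their library. In the plasma-positive library Tgfbr1 was at 0.615 (0.563 to 0.671), 0.654 (0.583 to 0.731) and 0.574 (0.509 to 0.646) times the level of the other cells, over 634, 358 and 364 cells. With all UMIs of those cells counted, the ratios were 0.671, 0.671 and 0.660, where the medians of 3540 genes at 50 CPM or more were 0.877, 0.912 and 0.926. By that count, members at least 1.5-fold lower in plasma-positive cells numbered 0 of 9 in the Apoe class (2.99% of genes), 1 of 9 in the interferon class (3.81%), which was Smad3 at 0.621 on 32 UMIs, and 1 of 9 in the chemokine class (2.46%), which was Tgfbr1. None was 1.5-fold higher, against 1.5%, 1.86% and 1.44% of genes. Smad3 was picked out here because it passed. At 35.0 and 32.9 CPM over all kept cells without and with the dye, Smad3 was itself below the 50 CPM minimum of those genes. Tgfbr2 was at 0.949 (0.820 to 1.093), 0.906 (0.743 to 1.094) and 1.023 (0.850 to 1.222) times the level of the other cells. The 3 classes shared cells, 47 of them in all 3, and with the cells of the other 2 classes left out the Tgfbr1 ratios were 0.715, 0.833 and 0.710. The cut is a range and not a type: 119 cells lay at exactly 3 Apoe UMIs and 231 at 2.

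In the plasma-negative library the same classes held 158, 77 and 110 cells. Tgfbr1 was at 0.826 (0.709 to 0.956), 0.872 (0.704 to 1.070) and 0.840 (0.700 to 0.9996) times the level of the other cells. Tgfbr2 was at 0.775 (0.555 to 1.05), 0.738 (0.444 to 1.15) and 0.733 (0.482 to 1.07), with intervals that included 1. These Tgfbr2 values rested on 41, 19 and 27 thinned UMIs. With all UMIs of those cells, Tgfbr1 was at 0.848, 0.930 and 0.826 and Tgfbr2 at 0.857, 0.895 and 0.981. Tgfbr2 was thus below Tgfbr1 in each class by thinned UMIs, but only in the interferon class by all UMIs. The Apoe value of Tgfbr1 there was not stable: it was 0.689 with another random thinning and 1.000 over cells with at least 3000 UMIs. With all UMIs, 1 of 9 members was at least 1.5-fold lower in the Apoe class (5.51% of genes), 1 of 9 in the interferon class (7.99%) and 0 of 9 in the chemokine class (6.3%). In both cases it was Smad3, on 13 and 7 UMIs, a gene below the 50 CPM minimum of the genes in these shares. None was 1.5-fold higher, against 0.763%, 2.91% and 3.08% of genes.

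Cells with at least 5 thinned UMIs of immediate early genes, a group induced quickly by stimulation, numbered 80 without and 57 with the dye. With all their UMIs, Tgfbr1 was at 0.960 (0.861 to 1.07) and 0.886 (0.787 to 0.994) times the level of the other cells, and Tgfbr2 at 1.097 (0.890 to 1.34) and 1.01 (0.808 to 1.25). Nrros was at 1.59 (1.18 to 2.09) on 51 UMIs in plasma-negative and 1.25 (0.870 to 1.74) on 35 UMIs in plasma-positive cells. It was the 1 member of 9 at least 1.5-fold higher without the dye, where 3.47% of genes were, and with the dye 0 of 9 were, against 3.33%. No member was 1.5-fold lower in this class in either library, against 5.34% and 6.21% of genes.

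In cells with 0 UMIs of Apoe and of the interferon, chemokine and cell cycle lists, 6536 plasma-negative and 5657 plasma-positive cells, Tgfbr1 was at 1401 and 1412 CPM of thinned UMIs, a ratio of 1.007 (0.978 to 1.038). Nrros was still lower with the dye in these cells, at 129 and 110 CPM, a ratio of 0.853 (0.768 to 0.947). The intervals of the other members included 1, with Smad2 at 0.881 (0.772 to 1.005). Without the cells with 3 or more Apoe UMIs the log2 ratio of Tgfbr1 between the libraries was -0.02, against -0.05 with them.

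Several members were higher in the cells with the fewest UMIs. In the shallowest of 10 equal bins, with the cells of both libraries ranked together by depth (501 to 1416 UMIs), Tgfbr1 was at 2144 CPM without and 2175 CPM with the dye, against 1366 and 1322 CPM in the other 9 bins, ratios of 1.57 (1.501 to 1.639) and 1.65 (1.57 to 1.73). Smad7 was at 344 and 332 CPM there, with ratios of 1.54 (1.38 to 1.72) and 1.56 (1.38 to 1.77). Smad3 had ratios of 1.54 (1.14 to 2.03) and 1.63 (1.17 to 2.22), and Smad4 of 1.39 and 1.41. For Smad2 they were 1.23 (0.986 to 1.51) and 1.35 (1.06 to 1.70), and for Nrros 1.05 (0.871 to 1.25) and 0.815 (0.638 to 1.03). Tgfbr2, with ratios of 1.02 and 1.04, Tgfb1, with 0.916 and 0.891, and Ski, with 1.06 and 1.14, had intervals that included 1. Over both libraries 3 of the 9 members, Tgfbr1, Smad7 and Smad3, were at least 1.5-fold higher in that bin. Of genes at 50 CPM or more, 23.1% were higher and 28.4% lower by that much. Smad3 itself was below 50 CPM over all kept cells of either library. The same bin had a ribosomal protein share of 2.30% and 2.55%, against at least 8.63% in every other bin, and a Malat1 level of 158019 and 145460 CPM, against at most 67493 CPM in every other bin. Their part in these levels was not tested.

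**Figure D5:**
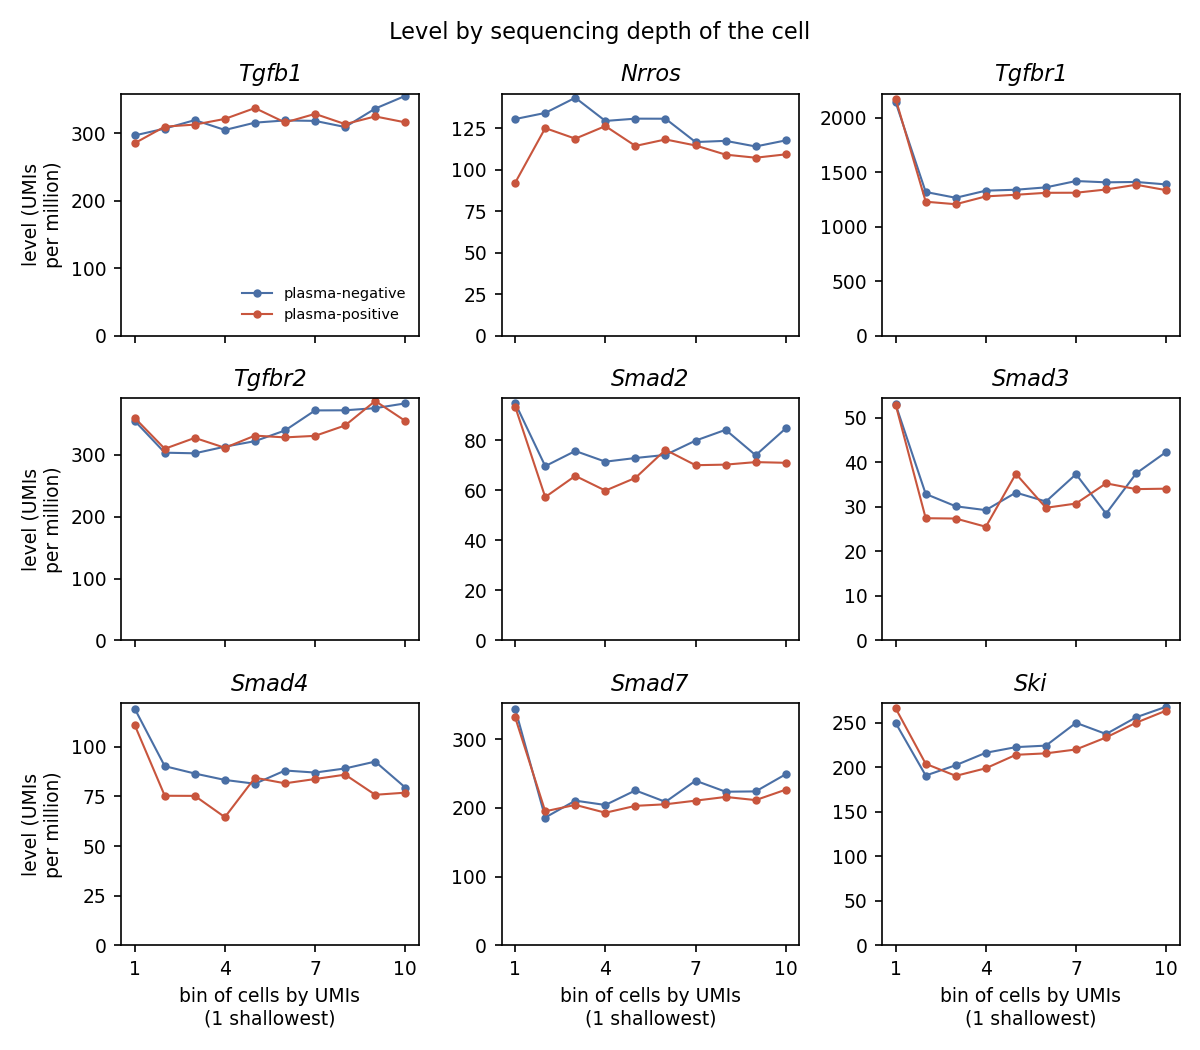
Level of each member in CPM in 10 equal bins of cells ranked by UMIs, from the shallowest (1) to the deepest (10), for the plasma-negative (blue) and plasma-positive (red) library. Tgfbr1, Smad7, Smad4, Smad3 and Smad2 are highest in the first bin in both libraries, and the red Nrros points lie below the blue ones in all 10 bins.

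The lower Nrros level of the plasma-positive library was seen in all 10 depth bins, with ratios from 0.706 to 0.982. In most of the depth bins the counting interval of the Nrros ratio included 1. Nrros also varied with the mitochondrial share, which differed between the libraries. Over 10 bins by that share it went from 147 to 96.4 CPM without and from 131 to 97.6 CPM with the dye, first bin to last. Within those bins it was lower in the plasma-positive library in 8 of 10, with ratios from 0.854 to 1.03. Smad2 was lower in 9 of 10 depth bins and 8 of 10 mitochondrial bins, and Smad4 in 9 of 10 of both. Tgfbr1 and Smad7 were also lower in 9 of 10 depth bins, and in 7 and 8 of 10 mitochondrial bins. Smad3 and Ski were lower in 8 of 10 depth bins, and in 7 and 5 of 10 mitochondrial bins. Tgfb1 and Tgfbr2 were each lower in 5 of 10 depth bins, and in 6 and 4 of 10 mitochondrial bins. The share of all genes lower in as many bins was not computed. Over all kept cells 5370 of 8355 genes were lower.

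Over 20 points, 10 mitochondrial bins in each of 2 libraries, the genes whose log2 CPM was most like that of Tgfbr1 among 3540 were Adrb1 (Pearson's r 0.868), Tap2 (0.859) and Senp7 (0.835), with a median r of 0.253 over all genes. Those most like Tgfbr2 were Igsf6 (0.729), Ssr3 (0.717) and Pbx2 (0.685), and those most like Tgfb1 were Tomm20 (0.892), Cmtm7 (0.839) and Atraid (0.799). The points share libraries and a ranking, so these values describe likeness only.

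The counts of further pathway genes below are set against the 6.82% of all genes that were higher and the 16.5% that were lower by 1.1-fold or more. Of 24 other genes for ligands, latency and release, 6 reached 10 CPM, with a median log2 ratio of 0.01. They included the integrin subunits Itgb5, which was at 775 and 849 CPM with a log2 ratio of 0.13, and Itgb3, at 31.7 and 29.2 CPM with -0.12, and the proteases Mmp14, at 23.7 and 27.3 CPM with 0.21, and Furin, at 33.2 and 32.6 CPM. Itgb8, the partner of Itgav that releases TGF-beta from its anchor, had 3 and 4 UMIs. One of the 6, Mmp14, was higher by 1.1-fold and none lower. Of 10 other receptor genes of the superfamily 8 passed, all below 0, with a median of -0.06. The activin receptor genes Acvr2a (25.3 and 21.7 CPM) and Acvr2b (24.5 and 21.01 CPM), each at a log2 ratio of -0.22, were lower by 1.1-fold, and the BMP receptor gene Bmpr2, the most abundant, was at 147 and 145 CPM. The log2 ratios of Bmpr2 and of the activin receptor-like kinase gene Acvr1 were both -0.02, the highest of the 8.

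Among 9 other Smad and cofactor genes 6 passed, with a median of -0.05 and 1 lower by 1.1-fold, Zfyve9, the Smad anchor SARA (16.8 and 15.2 CPM). Smad5, a BMP Smad, had a log2 ratio of -0.12. Ep300 and Crebbp, co-activators, were at 192 and 187 CPM and at 113 and 112 CPM, and Trim33, a Smad-binding ubiquitin ligase, at 40.8 and 40.7 CPM. Among 12 further regulators, mostly inhibitors, 11 passed, with a median of -0.06 and 1 lower by 1.1-fold, Tgif1, a co-repressor (38.2 and 34.7 CPM, log2 ratio -0.14). Pmepa1, an inhibitor that TGF-beta induces, was the most abundant of them at 1108 and 1088 CPM, and Usp15 had a log2 ratio of -0.14. Usp15, a deubiquitinase of the type I receptor, and Rnf111, which degrades Smad7, Ski and Skil, are known to promote the signal, so the list is not one of inhibitors alone. Rnf111 was at 137 and 127 CPM. The highest 2 were Tgif2 at 0.06 and Fkbp1a, whose product holds the type I receptor inactive, at 0.05. Of 17 listed general target genes of the pathway 5 passed, Id2, Tgfbi, Pmepa1, Junb and Skil, with a median of -0.03. Id2 was higher by 1.1-fold (22.3 and 24.8 CPM), none was lower by that much, and Junb was at 216 and 208 CPM. Tgfbi was at 23.7 and 23.4 CPM and Skil at 294 and 273 CPM.

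Microglial genes that need TGF-beta were all 19 above 10 CPM, with a median log2 ratio of -0.03, next to -0.04 over all genes. Cx3cr1, the fractalkine receptor, had the lowest value at -0.19, followed by Mef2a, a transcription factor, at -0.17. Fcrls was highest at 0.16, followed by Gas6, a ligand of phagocytic receptors, at 0.11. C1qa, a complement subunit, was the most abundant at 10258 and 10095 CPM. In all, 1 of the 19 was higher and 2 were lower by 1.1-fold or more, where 6.82% and 16.5% of all genes were. A list of 15 genes known to be raised in microglia that lack TGF-beta signalling was chosen with its values in these libraries known, so its direction is not independent evidence. Of these, 6 reached 10 CPM, 5 of them higher by 1.1-fold or more and none lower, against 6.82% and 16.5% of all genes, but Axl, Ccl2 and Ccl5 did so only through the library where they were high. Apoe was at 171 and 1190 CPM, Ccl5, a chemokine, at 2.58 and 24.2 CPM, Cd74, the invariant chain of MHC class II, at 29.7 and 37.6 CPM, and Lpl, lipoprotein lipase, at 34.1 and 31.1 CPM.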

How the data were processed

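Per the labels' protocols, sorted microglia went through droplet capture on the 10x Genomics platform, which reads the 3' ends of transcripts. The authors deposited UMI counts, not normalized, for every gene in each cell. The file headers name Cell Ranger 6.1.2 and the submitters' processing notes name Cell Ranger 3.0.1. The genome build, annotation, use of strand and cell calling were not given in the sources used here. Cell barcodes were not used here, so shared barcodes were not counted. The lowest totals in the matrices were 504 and 501 UMIs.

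The members and lists were chosen with earlier results of these data known. Counts were summed per library and divided by its total; all members were named, and from each list the most abundant gene and the 2 highest and 2 lowest log2 ratios at 10 CPM or more. No doublets were removed. Alternatives changed the cell filters, the total, the scaling, the thinning and the CPM minimum, and left out the 8% of cells with the most UMIs or cells high in Apoe, interferon or cell cycle genes. Intervals are exact at 95% and cover counting error only; UMIs in a cell are not independent of its handling. The ratio and thinning functions were tested on simulated data. Python 3.11.15, numpy 2.4.6, scipy 1.17.1, pandas 2.3.3 and matplotlib 3.10.9 were used. Of the 31053 identifiers 30934 were found in GENCODE M21, whose build need not be the authors'.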

Additional observations from a re-analysis of the deposited data

How the results depend on the processing

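No paired analysis was possible because only 1 library stood for each sort and no test was run, and no library could be left out. Of 99 recomputed log2 ratios of members (9 genes, 11 alternatives), 92 stayed within the counting interval and 7 moved out of it. The median over members lay between -0.08 and -0.05 in all 11. The number of members lower by 1.1-fold, 2 in the report (Smad2 and Nrros), was 0 without mitochondrial and ribosomal protein genes in the total and when centred on the median log2 ratio. Without those genes in the total, Smad2 was just short of the line, at -0.137. The number was 1 without the cells high in Apoe, Smad2 (-0.14), and 1 with each cell thinned, but then Smad3 (-0.14), with Smad2 at -0.13 and Nrros just short of the line. It was 3 as a mean over cells, with Smad4 (-0.14) added, and 2 without the 8% of cells with the most UMIs, with Smad4 (-0.14) in place of Smad2 (-0.13). None of the 11 gave a member higher by 1.1-fold. The median share of cells with a UMI, 18.8% without and 18.4% with the dye at 1000 UMIs, was 33.9% and 33.1% at 2000 UMIs and 47.9% and 50.7% without thinning. With no CPM minimum, 19.8% of all genes were higher and 28.5% lower by 1.1-fold.

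The alternatives for classes of cells were added after the values were seen. For Tgfbr1 in the Apoe class, the plasma-negative ratio was 0.689 with another seed and 1.000 over cells with 3000 UMIs or more, and the plasma-positive ratio 0.671 with all UMIs and 0.715 without cells of the other 2 classes. In the plasma-positive interferon class Tgfbr1 was at 0.833 without cells of the other classes, and Tgfbr2 at 1.157 with another seed and 1.110 without those cells. In the plasma-positive chemokine class Tgfbr1 was at 0.660 with all UMIs and 0.710 without those cells. The causes were not tested. Depth limits Smad3 most, with a mean of 0.0342 and 0.0309 UMIs per thinned cell.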
